A study of Mus musculus with 28 samples.

Results

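The Pax, Lhx, Dlx, sine oculis, Irx, Nkx, Sox, Gata and Tbx families of developmental transcription factors were placed relative to domains of H3K9me2, a histone mark of repressed chromatin deposited by EHMT1 and EHMT2. Members were chosen by name alone, as protein-coding autosomal genes of mm10 whose symbol starts with 1 of the 9 prefixes followed by a number. This gave 84 members among 20807 autosomal protein-coding genes, 18 of them Sox, 14 Nkx, 12 Tbx, 9 Pax, 8 Lhx, 6 Dlx, 6 sine oculis, 6 Irx and 5 Gata genes. Their starts fell into 71 loci when starts within 200 kb of each other were joined, and 10 of these loci held 23 members, so neighbouring members are not independent observations.

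Each family shares a DNA-binding domain: the paired box (Pax), the LIM homeobox (Lhx), the homeoboxes of the distal-less (Dlx), sine oculis, Iroquois (Irx) and NK (Nkx) types, the SRY-type HMG box (Sox), GATA zinc fingers and the T-box (Tbx). The encoded proteins specify tissues such as neural tube, heart, pancreas, pituitary and skeleton, and most are silent or low in pluripotent cells, where many of their promoters are CpG islands bound by Polycomb complexes. H3K9me2 forms broad blocks in mammalian chromatin, and EHMT2, also named G9a, catalyses it together with EHMT1.

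The cells were mouse embryonic stem cells (mESCs) of a BL6/129 hybrid background, line EHMT2-dTAG-mcherry MERV-GFP, in which every group carries the degron tag on endogenous EHMT2. They were treated for 72 h with the solvent DMSO or with dTAG, the degrader of tagged EHMT2, and were then separated by their MERVL reporter: cells without GFP were kept as mESCs and cells with GFP as 2-cell-like cells (2CLCs), an infrequent state with features of the 2-cell embryo. H3K9me2 was profiled with ULI-NChIP, which immunoprecipitates native chromatin from low cell numbers, and every combination of cell state and treatment had 3 immunoprecipitation and 3 input libraries. Unsorted mESCs treated with DMSO for 24 h contributed a further 2 of either kind, for a total of 28 libraries. The sorted experiments used 1 clone grown on feeder cells, and per the labels some replicates, which are not named, also received TTNBP, an agonist of retinoic acid receptors, whereas the study's methods name it for the sorted cells without that limit.

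The values are 5 sets of domain positions, 1 for each sorted condition and 1 set that names no condition, called the unnamed set here, which was assigned to no condition and is only set beside the sorted sets gene by gene. A set is 1 list for its condition, so no spread between replicates exists, no difference below was tested, and the depth behind the domains is unknown. The autosomal domains numbered 3870 (DMSO) and 6770 (dTAG) in mESCs, 3870 and 8281 in 2CLCs, and 6115 in the unnamed set, with median widths of 145, 60, 120, 55 and 150 kb in that order. Edges lie on a grid of 5 kb, which limits how finely a start can be placed. The cell states could not be checked by marker expression, since the files hold positions and no expression values, and a domain is not a level of the mark. Domains were cut at percentiles of the enrichment along the genome, and it is not stated whether these were set for each condition on its own, so a start inside in dTAG and outside in DMSO does not show that it carried more H3K9me2 in dTAG.

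The stretches of 250 bases before the starts of 4 members are shown as examples of starts inside and far outside domains. Lhx4 and Sox30 had their starts inside domains of both dTAG sets, and Tbx21 and Tbx6 had the starts farthest from any domain of the 4 sorted sets. The first pair was chosen after its values were seen, because no member was inside in all 4 sorted sets as the original rule required. Each stretch reads 5′ to 3′ on the strand of the gene, taken from GRCm38.p6, with every CG dinucleotide in capitals. The positions are chr1:155751685-155751934 on the minus strand for Lhx4, chr11:45980060-45980309 on the plus strand for Sox30, chr11:97115332-97115581 on the minus strand for Tbx21 and chr7:126781233-126781482 on the plus strand for Tbx6.
Lhx4: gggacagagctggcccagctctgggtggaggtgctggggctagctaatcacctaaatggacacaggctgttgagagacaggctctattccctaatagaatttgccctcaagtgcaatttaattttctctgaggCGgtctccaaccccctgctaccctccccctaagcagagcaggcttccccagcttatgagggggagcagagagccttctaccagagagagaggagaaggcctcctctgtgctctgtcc
Sox30: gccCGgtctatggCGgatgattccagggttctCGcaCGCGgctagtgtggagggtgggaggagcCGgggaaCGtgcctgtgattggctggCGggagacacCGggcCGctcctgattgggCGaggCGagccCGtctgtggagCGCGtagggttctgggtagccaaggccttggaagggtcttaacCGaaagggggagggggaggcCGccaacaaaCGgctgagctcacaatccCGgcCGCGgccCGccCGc
Tbx21: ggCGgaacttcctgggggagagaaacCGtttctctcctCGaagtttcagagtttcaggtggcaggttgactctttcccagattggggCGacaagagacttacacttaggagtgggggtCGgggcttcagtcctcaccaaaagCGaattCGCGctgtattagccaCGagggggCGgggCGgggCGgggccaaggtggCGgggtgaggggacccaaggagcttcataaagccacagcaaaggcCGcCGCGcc
Tbx6: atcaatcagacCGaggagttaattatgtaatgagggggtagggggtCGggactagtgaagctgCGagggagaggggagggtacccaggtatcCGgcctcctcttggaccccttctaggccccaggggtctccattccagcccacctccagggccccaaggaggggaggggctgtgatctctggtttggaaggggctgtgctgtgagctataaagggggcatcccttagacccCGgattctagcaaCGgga
The stretch of Lhx4 holds 1 CG and that of Sox30 holds 23, so the pair placed inside domains differed in CpG density. Tbx21 holds 16 and Tbx6 holds 6. CG reads the same on both strands and was found in 94.9% of all 20807 windows of 300 bases (250 before and 50 after the start) and in all 84 windows of the members. In these windows Lhx4 had 2 CG, a number that 87.5% of all windows reached, Sox30 had 28 (reached by 16.3%), Tbx21 had 21 (reached by 30.1%) and Tbx6 had 7 (reached by 62.6%).

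No member had its start inside an H3K9me2 domain in DMSO-treated mESCs. A count of 0 of 84 allows a share of up to 3.57% by the limit of 3 counts (Wilson 95% upper bound 4.37%), and over all autosomal protein-coding genes 21.4% of starts were inside. In mESC dTAG 3 members were inside (3.57%, Wilson 95% interval 1.22 to 9.98%), against 22.8% of all genes. In 2CLC DMSO there were 2 (2.38%, 0.655 to 8.27%), against 22.1%, and in 2CLC dTAG 8 (9.52%, 4.91 to 17.7%), against 25.5%. Within the unnamed set 12 members were inside (14.3%, 8.37 to 23.3%), against 29.8% of all genes. The share of members was below that of all genes in each of the 5 sets. The intervals cover the counting of genes only and treat members as independent.

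**Figure D1:**
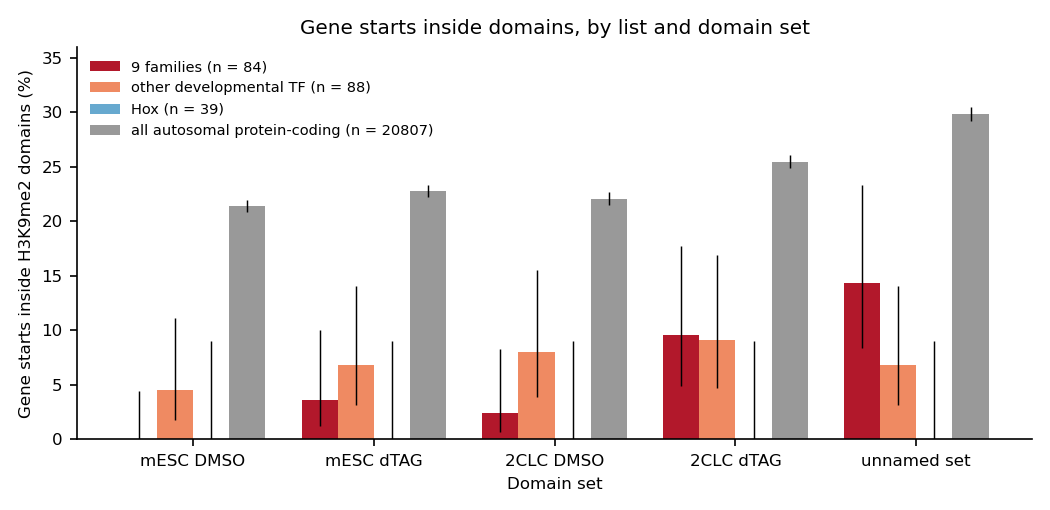
Percent of gene starts inside H3K9me2 domains (y axis) in each of the 5 domain sets (x axis), for the 84 members of the 9 families, 88 other developmental transcription factor genes, 39 Hox genes and all 20807 autosomal protein-coding genes; bars are shares and lines are Wilson 95% intervals, which cover the counting of genes only. The members stand at 0, 3.57, 2.38, 9.52 and 14.3%, the Hox genes at 0 throughout, and all genes between 21.4 and 29.8%.

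The 39 Hox genes, the homeobox genes of the 4 clusters that pattern the body axis, had no start inside a domain of any set. The list of 88 other developmental transcription factor genes (Fox, Pou, Msx, Emx, Otx, Pitx, Lmx, Isl, Neurod, Neurog, Olig, Ascl and Zic genes) had 4 starts inside with DMSO (4.55%) and 6 with dTAG (6.82%) in mESCs, 7 (7.95%) and 8 (9.09%) in 2CLCs, and 6 in the unnamed set (6.82%). Their shares thus lay below those of all genes as well, and in 2CLC dTAG they stood beside that of the members, 9.09 and 9.52%.

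Over the 4 sorted sets 10 members (11.9%) were inside a domain at least once and 74 (88.1%) never were, against 67.1% of all genes that never were. Of the 10, 7 were inside in exactly 1 set and 3 in exactly 2, with none in 3 or 4. The shares of all genes inside in exactly 1, 2 or 3 sets are not given here. This split is therefore not read as a trait of the families. Among all genes 2998 (14.4%) were inside in all 4 sorted sets and 13953 (67.1%) in none. By family the 10 comprised 4 of 18 Sox genes (Sox11, Sox14, Sox17, Sox30), 3 of 8 Lhx genes (Lhx4, Lhx8, Lhx9), 2 of 14 Nkx genes (Nkx2-6, Nkx6-1) and 1 of 12 Tbx genes (Tbx19). Pax, Dlx, sine oculis, Irx and Gata had none.

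Sox17, an SRY-box factor of the definitive endoderm and of blood vessels (chr1:4490931-4497354, minus strand), was the one member inside in both 2CLC sets. Its start lay 2.15 kb inside a domain of 265 kb in 2CLC DMSO and 2.15 kb inside one of 80 kb in 2CLC dTAG, with 33.5% of its body covered in each. In the mESC sets it was outside, at 7.15 kb in DMSO and 27.2 kb in dTAG. Both 2CLC domains began at the same grid position, so Sox17 sat less than 1 bin from the edge in each. Sox11, a factor of neuronal progenitors and young neurons (chr12:27334264-27342574, minus strand), was inside only in 2CLC DMSO among the sorted sets, by 0.483 kb in a domain of 45 kb, with 5.81% of its body covered. It lay 49.5 kb outside in mESC DMSO and in 2CLC dTAG, and 54.5 kb outside in mESC dTAG.

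Sox30, a factor of male germ cell development (chr11:45980310-46017994, plus strand), was inside in both dTAG sets. In mESC dTAG its start was 5.54 kb inside a 45 kb domain and in 2CLC dTAG 30.5 kb inside a 75 kb domain, and both covered 100% of its body. It lay 191 kb outside in mESC DMSO and 9.46 kb outside in 2CLC DMSO, where 74.9% of the body was nevertheless covered. Sox30 thus had the deepest start of any member in the sorted sets, and its 2CLC dTAG domain also held the start of Thg1l. Its CG-dense stretch is printed above.

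Sox14, a factor of ventral interneurons (chr9:99874106-99876170, minus strand), was inside only in 2CLC dTAG among the sorted sets, 4.68 kb from the edge of a 75 kb domain that covered the whole gene. Elsewhere its start was outside, by 20.3 kb (DMSO) and 10.3 kb (dTAG) in mESCs and by 74.7 kb in 2CLC DMSO.

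Lhx4, which acts in the pituitary and in motor neurons (chr1:155698031-155751684, minus strand), was 1.68 kb inside in both dTAG sets, where the domain was 25 kb wide in mESCs and 30 kb wide in 2CLCs. In the DMSO sets the nearest domain was 747 kb away in mESCs and 598 kb away in 2CLCs. Both dTAG domains lay almost wholly before the start and covered 3.14% of the gene body. Of the members inside a sorted domain, Lhx4 had the largest step in distance between DMSO and dTAG in either cell state.

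Lhx8, a factor of basal forebrain neurons and oocytes (chr3:154306294-154330659, minus strand), was 16.4 kb inside a domain of 65 kb in 2CLC dTAG, with 67.1% of its body covered. It was 8.65 kb outside in both mESC sets and 139 kb outside in 2CLC DMSO. Lhx9, a factor of gonad and limb development (chr1:138825186-138848577, minus strand), was 8.55 kb inside a 70 kb domain in 2CLC dTAG, with 36.6% of its body covered, and outside by 6.45 kb in both DMSO sets and by 1.45 kb in mESC dTAG. Both genes were therefore near a domain in mESCs already, within 2 bins of an edge.

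Nkx2-6, an NK homeobox gene of the pharyngeal pouches and early heart (chr14:69171802-69175518, plus strand), was inside only in mESC dTAG, 4.25 kb from the edge of a 70 kb domain that covered the whole gene. It lay 35.7 kb outside in mESC DMSO, and in 2CLCs 10.7 kb (DMSO) and 5.75 kb (dTAG) outside. Nkx6-1, a factor of pancreatic beta cells and the ventral neural tube (chr5:101658139-101664996, minus strand), was 3.84 kb inside a 35 kb domain in 2CLC dTAG, with 56.0% of its body covered, and outside by 144 kb in both DMSO sets and by 28.8 kb in mESC dTAG.

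Tbx19, the T-box factor of pituitary corticotrophs (chr1:165137855-165160773, minus strand), was 15.8 kb inside a 35 kb domain in 2CLC dTAG, with 68.9% of its body covered. In the remaining sorted sets it was outside, by 60.8 kb (DMSO) and 94.2 kb (dTAG) in mESCs and by 65.8 kb in 2CLC DMSO. Apart from Sox17, each domain that covered a member's start in a sorted set was 75 kb wide or less.

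**Figure D2:**
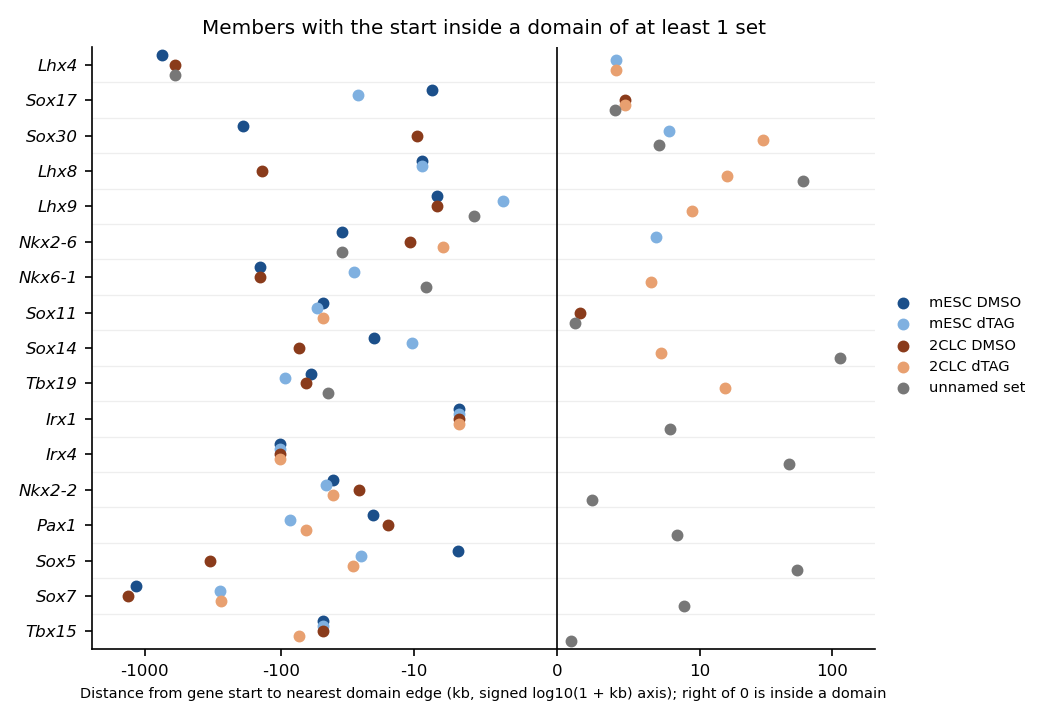
Distance in kb from the gene start to the nearest domain edge (x axis, signed log10(1 + kb) scale, positive inside a domain) for the 17 members inside a domain of at least 1 of the 5 sets (y axis), with 1 point per domain set. The upper 10 genes are inside in a sorted set and the lower 7 in the unnamed set alone; no mESC DMSO point lies to the right of 0.

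Between DMSO and dTAG in mESCs, 3 of 84 members outside in DMSO were inside in dTAG (3.57%), namely Lhx4, Nkx2-6 and Sox30. Over all genes outside in DMSO this share was 7.92% (1296 of 16354). No member could leave a domain in mESCs, since none was inside in DMSO, whereas 22.7% of all genes inside in DMSO (1012 of 4453) were outside in dTAG. In 2CLCs 7 of 82 members outside in DMSO were inside in dTAG (8.54%), against 9.60% of all genes (1556 of 16214). These were Lhx4, Lhx8, Lhx9, Nkx6-1, Sox14, Sox30 and Tbx19. Of the 2 members inside in 2CLC DMSO, Sox11 was outside in dTAG and Sox17 was not, and 18.4% of all genes inside in 2CLC DMSO (847 of 4593) were outside in dTAG. The 7 in 2CLCs included 2 of the 3 of the mESC sets, Lhx4 and Sox30. The 2CLC share was near that of all genes, and the mESC interval included the share of all genes. Neither share is a result about the families.

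The starts nearest to an edge show how much of this placement rests on 1 bin. In mESC DMSO the members just outside were Irx1 at 4.13 kb, Sox5 at 4.24 kb and Lhx9 at 6.45 kb. In mESC dTAG the members inside were Lhx4, Nkx2-6 and Sox30 at 1.68, 4.25 and 5.54 kb, and just outside were Lhx9 at 1.45 kb, Irx1 at 4.13 kb and Dlx5 at 4.31 kb. All 3 mESC dTAG members thus lay within about 1 bin of the edge. In 2CLC DMSO Sox11 and Sox17 were inside by 0.483 and 2.15 kb, and Sox21, Irx1 and Lhx9 were outside by 3.96, 4.13 and 6.45 kb. In 2CLC dTAG the least deep were Lhx4, Sox17 and Nkx6-1 at 1.68, 2.15 and 3.84 kb, and the nearest outside were Sox21, Irx1 and Dlx5 at 3.96, 4.13 and 4.31 kb.

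Members that were inside no domain and had under 25% of the body covered in every sorted set were ranked by their smallest distance over the 4 sorted sets. Among the nearest were Sox21 (3.96 kb), Dlx5 (4.31 kb), Dlx6 (6.94 kb), Nkx2-4 (7.34 kb), Nkx2-5 (8.03 kb), Irx2 (9.03 kb), Sox4 (9.20 kb) and Nkx2-1 (20.1 kb). Dlx5 and Dlx6, which act in jaw and limb, are 1 locus, and the Nkx genes named include the cardiac gene Nkx2-5 and the lung and thyroid gene Nkx2-1. The 5 farthest were Tbx21 (944 kb), the T-box factor of T helper cells, Tbx6 (668 kb), of presomitic mesoderm, Sox10 (533 kb), of neural crest, Dlx4 (512 kb), a distal-less gene, and Lhx1 (489 kb), of the head organizer and kidney. The nearest domain to Tbx21 lay 2486 kb (DMSO) and 1489 kb (dTAG) away in mESCs, and 2559 and 944 kb away in 2CLCs. Tbx21 and Dlx4 shared the same domain-free interval of 5030 kb in mESC DMSO and of 3425 kb in 2CLC dTAG.

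Sox2, Gata4 and Gata6 were picked by their known roles after their values were seen. Sox2, a core pluripotency factor, was outside in all sets, at 231 kb (DMSO) and 95.9 kb (dTAG) in mESCs and at 276 and 184 kb in 2CLCs. Gata4 and Gata6, factors of primitive endoderm and heart, were outside in all sets as well, and their smallest distances over the sorted sets were 359 and 72.5 kb.

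By family the median of the smallest distance over the sorted sets was 26.3 kb for Nkx, 50.3 kb for Irx, 80.8 kb for Sox, 93.6 kb for Lhx, 102 kb for Pax, 130 kb for Tbx, 159 kb for sine oculis, 213 kb for Gata and 365 kb for Dlx, each outside. Within a family the spread was wide: Dlx members ranged from 4.31 to 512 kb and Irx members from 4.13 to 135 kb. Families with few members, such as Gata with 5, are described by few genes, and Dlx, with 6 members in 3 loci, by few independent positions.

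**Figure D3:**
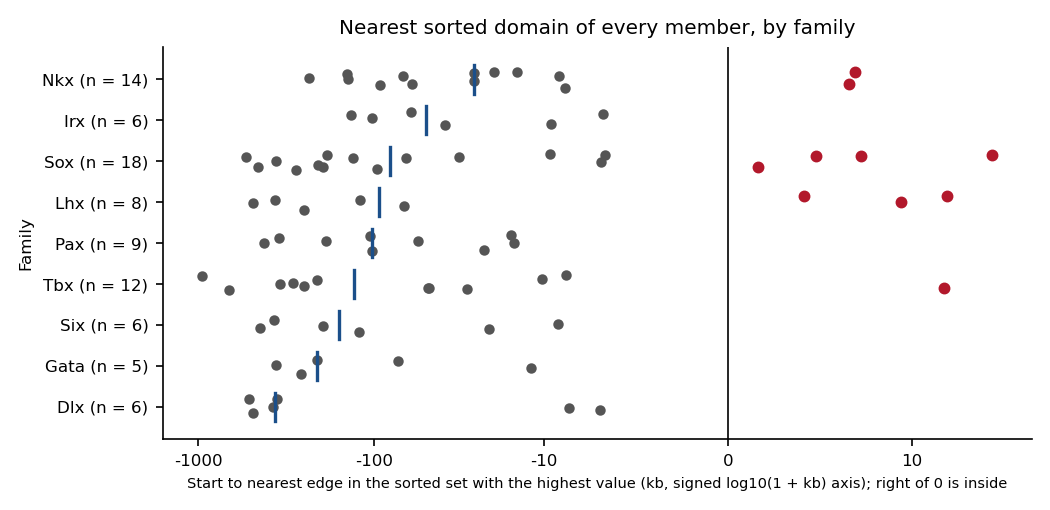
Distance from the start of each member to the nearest edge in the sorted set that gave the highest value (x axis, kb, signed log10(1 + kb) scale, positive inside), by family (y axis); each point is a gene, red where it is inside a domain of a sorted set, and the vertical bars are family medians. The medians run from 26.3 kb outside for Nkx to 365 kb outside for Dlx, and the 10 points inside belong to Sox, Lhx, Nkx and Tbx.

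Although rarely inside, the members were by the median not farther from domains in DMSO than all genes. Among starts outside, the median distance to a domain was 201 kb (DMSO) and 192 kb (dTAG) in mESCs, and 258 and 173 kb in 2CLCs. Over all genes outside these medians were 328 and 150 kb in mESCs and 346 and 107 kb in 2CLCs, so the median of the members was smaller in both DMSO sets and larger in both dTAG sets. For genes with no more than 3 other protein-coding starts within 250 kb, the medians outside were 87.6 and 69.6 kb, and 114 and 53.5 kb. For members of this kind they were 77.7 and 79.2 kb, and 198 and 71.4 kb. Against such genes the members had the smaller median in mESC DMSO alone. In mESCs, of the 81 members outside in both sets, 41 (50.6%) were nearer to a domain in dTAG, 28 (34.6%) were farther and 12 differed by no more than 2.5 kb, against 69.0% nearer and 22.3% farther over all genes. Of the 75 members outside in both 2CLC sets, 48 (64.0%) were nearer, 23 (30.7%) farther and 4 within 2.5 kb, against 77.4% and 15.0%. For the other developmental transcription factor genes 54.4% were nearer and 25.3% farther in mESCs, and 68.4 and 23.7% in 2CLCs. Their shares nearer were thus also below those of all genes. For Hox genes the shares were 74.4 and 25.6% in mESCs, and 100 and 0% in 2CLCs.

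Counted from the nearest sorted domain, 48 members (57.1%) had more than 50 kb to every sorted domain, against 45.6% of all genes, and 26 (31.0%) had more than 200 kb, against 20.8%. At the near end, 16 members (19.0%) were outside in all 4 sets but within 20 kb of a domain, against 10.7% of all genes. More than 500 kb was reached by 4 members (4.76%), against 5.71%. These shares depend on how many genes are inside: of the starts outside in all 4 sorted sets, 64.9% of the members (48 of 74) and 68.1% of all genes had more than 50 kb to every sorted domain, and 21.6% and 16.0% lay within 20 kb of one.

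The coverage around the starts was taken in steps of 10 kb. In mESC DMSO domains covered on average 1.30% of the bases within 10 kb of a member's start, 6.54% at 10 to 20 kb, 15.1% at 50 to 60 kb and 28.3% at 490 to 500 kb, while over all genes the values rose from 22.1% to 34.3%. In mESC dTAG the members went from 3.86% to 21.0% (all genes 23.0% to 31.1%), with falls in between, such as from 15.6% at 100 to 110 kb to 11.8% at 140 to 150 kb. The 2CLC DMSO values went from 3.08% to 22.7% (all genes 22.6% to 32.4%) and those of 2CLC dTAG from 9.38% to 24.7% (all genes 25.9% to 33.6%). Within 10 kb coverage was 0 for Hox genes in the 4 sorted sets, and for the other developmental transcription factor genes it ran from 6.08% in mESC DMSO to 10.7% in 2CLC DMSO. Coverage of the members was thus lower within 10 kb of the start than at 490 to 500 kb in each sorted set. At 490 to 500 kb it was still below that of all genes. In 2CLC dTAG the innermost 10 kb of the members stood beside those of the other developmental genes, 9.38 and 9.62%.

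**Figure D4:**
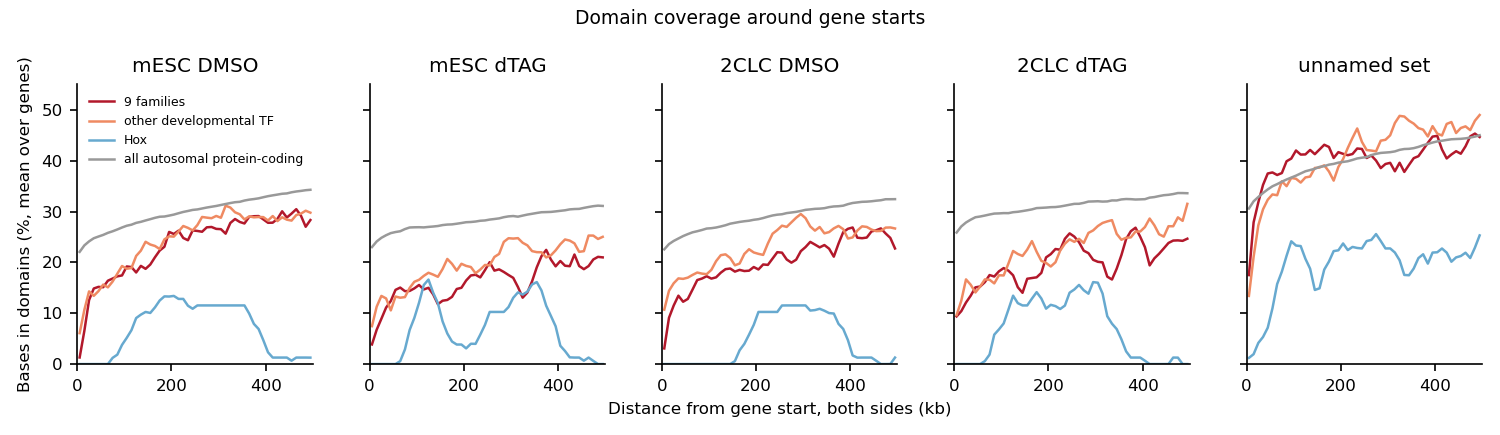
Mean percent of bases in domains (y axis) against distance from the gene start on both sides in steps of 10 kb (x axis, kb), 1 panel per domain set, for the 9 families, the 2 comparison lists and all autosomal protein-coding genes; lines are means over genes with no error. The line of the 9 families starts at 1.30% in mESC DMSO and at 9.38% in 2CLC dTAG and rises over the first 100 kb, below the line of all genes in the 4 sorted panels.

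Gene bodies were touched by a domain in 7 members with DMSO (8.33%) and 9 with dTAG (10.7%) in mESCs, and in 9 (10.7%) and 14 (16.7%) in 2CLCs, and 64 members (76.2%) were untouched in all 4 sorted sets, against 59.3% of all genes. Over all genes the shares touched were 26.8, 29.99, 27.1 and 34.2%. The median covered share of the body was 0 in every set for members and for all genes. Members are also shorter, with a median length of 7.67 kb against 17.6 kb for all genes.

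In 9 members (10.7%) at least 25% of the body lay in domains of a sorted set while the start stayed outside, a share near the 9.8% of all genes and so no result about the families. Gata3, a factor of T helper cells and trophoblast, had 63.4% of its 33.0 kb body covered in mESC DMSO and 0 in the other sorted sets. Pax3, of neural crest and muscle progenitors, had 71.8% (DMSO) and 35.3% (dTAG) covered in mESCs and 0 in both 2CLC sets. Pax1, of the sclerotome, had 33.5% covered in mESC DMSO and 49.5% in 2CLC DMSO, and 0 in both dTAG sets. These 3 genes had less of the body in domains in dTAG than in DMSO in every cell state where they were covered.

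Tbx15, of limb skeleton and skin, was the most even of the 9, with 57.0% covered in mESC DMSO, mESC dTAG and 2CLC DMSO and 35.02% in 2CLC dTAG. Sox5, a chondrocyte and neuronal factor with a body of 954 kb, had 47.5% (DMSO) and 13.9% (dTAG) covered in mESCs and 2.62 and 11.5% in 2CLCs. The cardiac factor Tbx20 had 24.0% covered in mESC dTAG, 41.8% in 2CLC dTAG and 0 in both DMSO sets. Tbx18, of the epicardium, had 13.0% covered in 2CLC DMSO and 30.6% in 2CLC dTAG, and Pax9, of sclerotome and teeth, had 27.4% in 2CLC DMSO alone. Sox30 in 2CLC DMSO, given above, is the ninth. Body coverage thus moved both ways between DMSO and dTAG among the members.

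**Figure D5:**
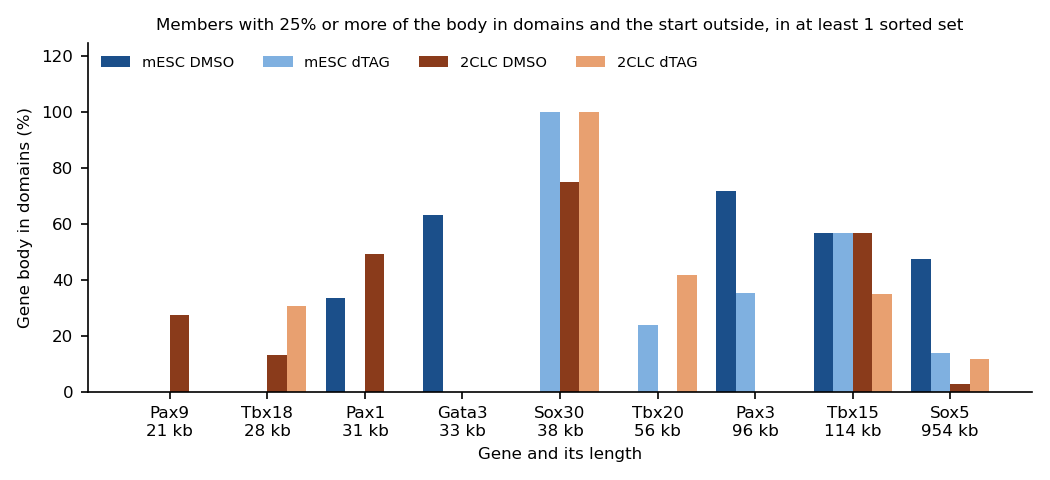
Percent of the gene body in domains (y axis, from 0) in the 4 sorted sets for the 9 members with at least 25% covered in a sorted set in which the start was outside (x axis, ordered by gene length, given under each name in kb). Gata3 and Pax1 have bars in DMSO sets alone, Tbx20 in dTAG sets alone and Tbx15 in all 4; Sox30 reaches 100% in both dTAG sets, where its start is inside.

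Long members also have starts inside their own bodies. When a start of any annotated transcript was allowed, 4 of 84 members (4.76%) were inside in mESC DMSO, against 23.3% of all genes by the same rule: Gata3, with 2 of 6 annotated starts, Sox5, with 6 of 12, Sox6, the partner of Sox5 in cartilage, with 1 of 13, and Tbx15, with 1 of 3. The Sox5 starts inside lay 572 to 578 kb downstream of the gene start, that of Sox6 214 kb and that of Tbx15 56.1 kb downstream. The 0 of mESC DMSO therefore holds for the first start of each gene and not for every promoter.

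Features that the choice by name did not use were set beside the placement. The 300-base windows of the members had a median CpG observed over expected ratio of 0.632 against 0.540 for all genes, and the median share of soft-masked, mostly repeat-derived, sequence within 50 kb of the start was 24.5% against 30.2%. The median number of other protein-coding starts within 250 kb was 3 for members and 9 for all genes. The 10 members inside a sorted domain had a median ratio of 0.576 and 28.2% masked sequence, and the 74 others 0.638 and 24.1%. Genes inside in all 4 sorted sets, none of them a member, had a median ratio of 0.126 and 46.7% masked sequence.

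CpG-rich windows, with a ratio of at least 0.6 and a GC content of at least 50%, were present in 44 members (52.4%) and in 42.5% of all genes. Among all 8838 genes with such windows the share of starts inside was 4.37% (DMSO) and 9.26% (dTAG) in mESCs and 6.25 and 11.7% in 2CLCs, and of the 44 members 0, 1, 2 and 4 were inside (0, 2.27, 4.55 and 9.09%). Among the 11969 genes with other windows the shares were 34.0, 32.7, 33.8 and 35.7%, and of the 40 members 0, 2, 0 and 4 were inside. The share of members was below that of all genes of the same kind in each of these 8 pairs of the sorted sets. Where windows were CpG-rich the margin was smaller, and the Wilson intervals of the members included the share of all such genes in every sorted set. Their upper bounds were 8.03, 11.8, 15.1 and 21.2%. The CpG-rich pairs are therefore no result about the families. For other windows the upper bounds, 8.76, 16.5, 8.76 and 23.1%, lay below the shares of all such genes. In the unnamed set the order was the other way for CpG-rich windows, with 9 of the 44 members (20.5%) inside against 11.8% of all such genes. The Wilson interval of this share, 11.2 to 34.5%, included 11.8%. Of the 40 others 3 (7.50%) were inside, against 43.1%. Among the 1978 CpG-rich genes with no more than 3 neighbouring starts the shares inside in the sorted sets were 14.3, 19.5, 19.1 and 23.7%. Of the 27 members of this kind 0, 0, 2 and 3 were inside. In the unnamed set 7 of these 27 (25.9%) were inside, against 33.8% of all such genes, so the reversed order was absent there. Base composition moved with the placement over all genes. The median number of neighbouring starts was 9 both for genes inside in all 4 sorted sets and for genes outside in all 4. Of genes with no more than 3 such neighbours, however, 30.9% were inside in mESC DMSO, against 21.4% of all genes. The part of base composition and gene density in the placement of the members was not tested.

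In the unnamed set 12 members had their start inside, 5 of which were also inside in a sorted set (Lhx8, Sox11, Sox14, Sox17 and Sox30). Sox14 lay 114 kb inside a domain of 565 kb and Lhx8 60.6 kb inside one of 370 kb, while Sox17, Sox30 and Sox11 lay 1.64, 4.55 and 0.349 kb inside. The other 7 were Irx1, Irx4, Nkx2-2, Pax1, Sox5, Sox7 and Tbx15. Irx4, of the ventricular heart muscle, lay 47.6 kb inside a domain of 410 kb and Sox5 55.2 kb inside one of 365 kb. Irx1 lay 5.66 kb inside a domain of 670 kb that ended 0.759 kb before the start of Irx2, so the interval between these neighbours was covered nearly in full. The call for Irx2 depends on the annotation: its RefSeq start, 4.39 kb away, was inside in this set. With RefSeq starts 13 members (15.5%) were inside. Nkx2-2, of ventral neural tube and pancreas, and Pax1 lay at opposite ends of 1 domain of 175 kb, by 0.790 and 6.53 kb. Sox7, of blood vessels, lay 7.35 kb inside and Tbx15 0.266 kb inside. The 7 are 8.33% of the members, and 6.44% of all genes (1340) were inside in this set and in no sorted set. These shares are near each other, so the count is no result about the families. Over 5 sets 67 members (79.8%), Irx2 among them, were inside no domain by the GENCODE start. Of all genes, 67.1% were inside in no sorted set, which includes the 6.44% inside in the unnamed set alone. The share of all genes inside no domain over the 5 sets was therefore below 67.1%, and so below that of the members. This difference was not tested.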

How the data were processed

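H3K9me2 was profiled by ULI-NChIP in sorted mESCs and 2CLCs of 1 degron line. Per the study's methods and the submitters' processing notes, reads were aligned to mm10 with STAR 2.7.10, duplicates (Picard 2.26.0) and high-signal regions were removed, coverage was scaled to genome content (deepTools 3.5.1), and domains were called on binned log2 ratios of immunoprecipitation to input, seeded above an upper percentile and grown to a lower one. Whether replicates were pooled, or percentiles set per condition, is not given in the sources used here. The deposited values are domain start and end positions, with a score of 0 throughout that was not used.

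Gene starts (5′ ends) and bodies of GENCODE M21 genes on GRCm38.p6 were placed with Python 3.11.15, numpy 2.4.6 and pandas 2.3.3, and all 84 members also had a RefSeq start. The placement was checked on 2000 simulated positions, with 0 wrong. A start was inside if covered by a domain, and distances run to the nearest edge. Named members were those with the start inside a set, those with at least 25% of the body in a sorted set with the start outside, and of the others the 10 nearest and 5 farthest. Some of the nearest are not reported here. The members and lists were chosen with earlier results of these data known. Alternatives were other starts, a minimum width of 50 kb, joined gaps, 5 kb of edge tolerance, a body share of 50%, loci as units and, chosen after seeing the data, leaving out each family. The grouping by CpG content and neighbouring starts was also chosen after seeing the data.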

Additional observations from a re-analysis of the deposited data

Results flagged for a closer look

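The unnamed set, which enters no comparison between conditions, placed the starts of 7 members inside domains that no sorted set placed inside: Irx1, Irx4, Nkx2-2, Pax1, Sox5, Sox7 and Tbx15. No input or control set was placed in the same way, and these 7 were not tested. They are 8.33% of the members, and over all genes 6.44% of starts were inside in this set and in no sorted set. These shares are near each other, so the flag is no result about the families.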

How the results depend on the processing

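Over the alternatives run, 129 values stayed within their counting interval or at a median of 0, and 12 moved by more. The 129 include every value of the setting without opposite-strand names, which repeats the main setting and could not move. They also include the mESC DMSO share with each family left out, which could only be 0. The tally is therefore not a measure of stability. With a start of any annotated transcript the mESC DMSO share rose from 0 to 4.76%. With domains of at least 50 kb alone the mESC dTAG share and the share of members inside in mESC dTAG after being outside in DMSO were each 1.19%, and the share leaving in 2CLCs was 0%. With starts over 5 kb inside, the shares were 1.19% in mESC dTAG, 0% in 2CLC DMSO, 4.76% in 2CLC dTAG and 8.33% in the unnamed set, the mESC share entering was 1.19% and the 2CLC share leaving was 0%. Counting starts within 5 kb of a domain as inside gave 25% in the unnamed set. Without the Sox genes, an alternative chosen after seeing the data, the 2CLC DMSO share was 0%, since both members inside there are Sox genes. Over the alternatives listed in the processing, families left out aside, the shares ranged from 0 to 4.76% in mESC DMSO, 1.19 to 7.14% in mESC dTAG, 0 to 4.76% in 2CLC DMSO and 4.76 to 13.1% in 2CLC dTAG. Each lay below the main share of all genes, which is not counted by the same rule. By the same rule the shares of all genes were 19.6, 19.9, 20.2 and 21.8% for starts over 5 kb inside. For at least 50% of the body they were 22.2, 21.7, 22.3 and 24.0%. For most other alternatives no such share is given. Leaving out opposite-strand names changed nothing, since no member carries one. No paired analysis was possible because each condition has 1 domain list and no values per replicate, and for the same reason no replicate could be left out.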
